A study of Homo sapiens with 9 samples.

Results

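The genes described here encode the heterogeneous nuclear ribonucleoproteins (hnRNPs), the SR proteins, the protein subunits of the spliceosomal small nuclear ribonucleoproteins (snRNPs) and the splicing factors SF3A and SF3B. Members were all probe sets whose platform annotation held a single gene symbol starting with HNRNP, SRSF, SNRP, SF3A or SF3B. There were 42 such probe sets, for 40 genes, among 8746 probe sets on the array after removal of the manufacturer's controls, where 7713 genes are named by a probe set of their own. Another 8 probe sets carried a symbol of these families together with a second symbol and were not used.

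Total RNA of the human neuroblastoma line LAN-5 was hybridised as biotin-labelled cRNA to 9 single-colour Affymetrix arrays. The cells, for which the labels state no genetic change, were plated at one density after growth in complete medium. They were left untreated in culture medium alone (3 arrays) or received S100B at a low dose of 0.5 nM (3 arrays) or a high dose of 5 µM (3 arrays). S100B is a small calcium-binding protein that glial cells release and that can act on neurons from outside. The series design calls the 3 arrays of a group biological replicates, but nothing says whether they came from separate cultures, so p-values measure the spread between these arrays, which may in part be technical. The length of treatment is not given in the sources used here.

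Introns are removed from precursor RNA by the spliceosome, which assembles anew on each intron from snRNPs and many free proteins. The U1 snRNP pairs with the start of the intron and the U2 snRNP with the branch site, where SF3A and SF3B hold it in place, and each of these particles is built on a ring of Sm proteins. SR proteins bind exons and mostly favour the use of nearby splice sites, while hnRNPs coat the precursor RNA and often oppose it, so the balance of both families sets which exons are kept. Neurons are known for especially rich use of alternative exons.

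The arrays were closely alike. Arrays of one group correlated at 0.9934 to 0.9974 over the 5830 probe sets above an intensity filter, and arrays of different groups at 0.9937 to 0.997. Of 15 markers of noradrenergic neuroblastoma 13 were measured and 12 lay above the filter, from CHGA at a mean of 12.39 log2 down to TH, the exception, at 5.58, below the filter mean of 5.95. Of the 6 leukocyte markers measured, which ran from CD3E at 7.29 down to PTPRC at 4.77, 3 lay above the filter, and of the 6 epithelial markers, from KRT18 at 6.99 down to EPCAM at 5.00, also 3. Of the 6 astrocyte and oligodendrocyte markers, from GLUL at 10.44 down to AQP4 at 4.78, 3 did, and of 12 mesenchymal probe sets, from VIM at 10.84 down to COL3A1 at 4.67, 5 did. No marker of these lists passed the test in any comparison. Untreated replicate 1 stood apart in its 18 bacterial and phage spike-in controls, with a mean of 8.71 log2 against 9.04 to 9.45 on the other 8 arrays.

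Splicing factor transcripts were at high signal and did not pass the test at either dose. Of the 42 member probe sets 41 lay above the filter, with mean signals of 7.01 to 12.80 log2, against array medians of 6.60 to 6.64. A signal also depends on the probes, so these values order no genes. In the fit by limma over all 5830 probe sets, with Benjamini-Hochberg adjustment and a threshold of 0.05, 0 of 41 members differed between 5 µM and untreated, where 0.292% of all probe sets passed. The count was 0 of 41 between 0.5 nM and untreated, where 0% of all probe sets passed, and 0 of 41 between the doses, where 0.257% passed. The smallest adjusted p of a member was 0.699, 0.9999 and 0.945 in these comparisons.

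Before adjustment, 2 of 41 members had a limma p under 0.05 between 5 µM and untreated, against 6.84% of all probe sets. At 0.5 nM 1 of 41 did, against 3.29%, and between the doses 2 of 41 did, against 4.65%. Between 5 µM and untreated the arrays were fully separated, with no overlap, in 5 of 41 members (12.2%), beside 12.3% of all probe sets. They were so in 2 members at 0.5 nM (4.88%, beside 6.98% of all) and in 3 members between the doses (7.32% against 6.98%). The 5 were HNRNPK, SRSF11, SNRPB2, SF3B3 and SNRPE. The 2 were HNRNPD (209330_s_at) and SF3A1, and the 3 were HNRNPU, SNRPB2 and SNRPD3. All these shares lay near or below those of all probe sets.

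The intervals give the precision of each estimate from the spread between these arrays, which may in part be technical. The bound furthest from 0 was 0.49 log2, for HNRNPL at 0.5 nM against untreated. The 95% intervals of all 41 members lay within 0.5 log2 of 0 in each comparison, that is between 70.7% and 141.4% of the reference level. The half-width of a member's interval had a median of 0.167 log2 and a maximum of 0.321, the latter for SRSF6. Point estimates at 5 µM ran from 88.3% of untreated for SNRPA to 113.7% for SF3A2. At 0.5 nM they ran from 92.3% for SRSF3 to 121.9% for HNRNPL. These intervals are for single members and are not adjusted for their number.

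**Figure D1:**
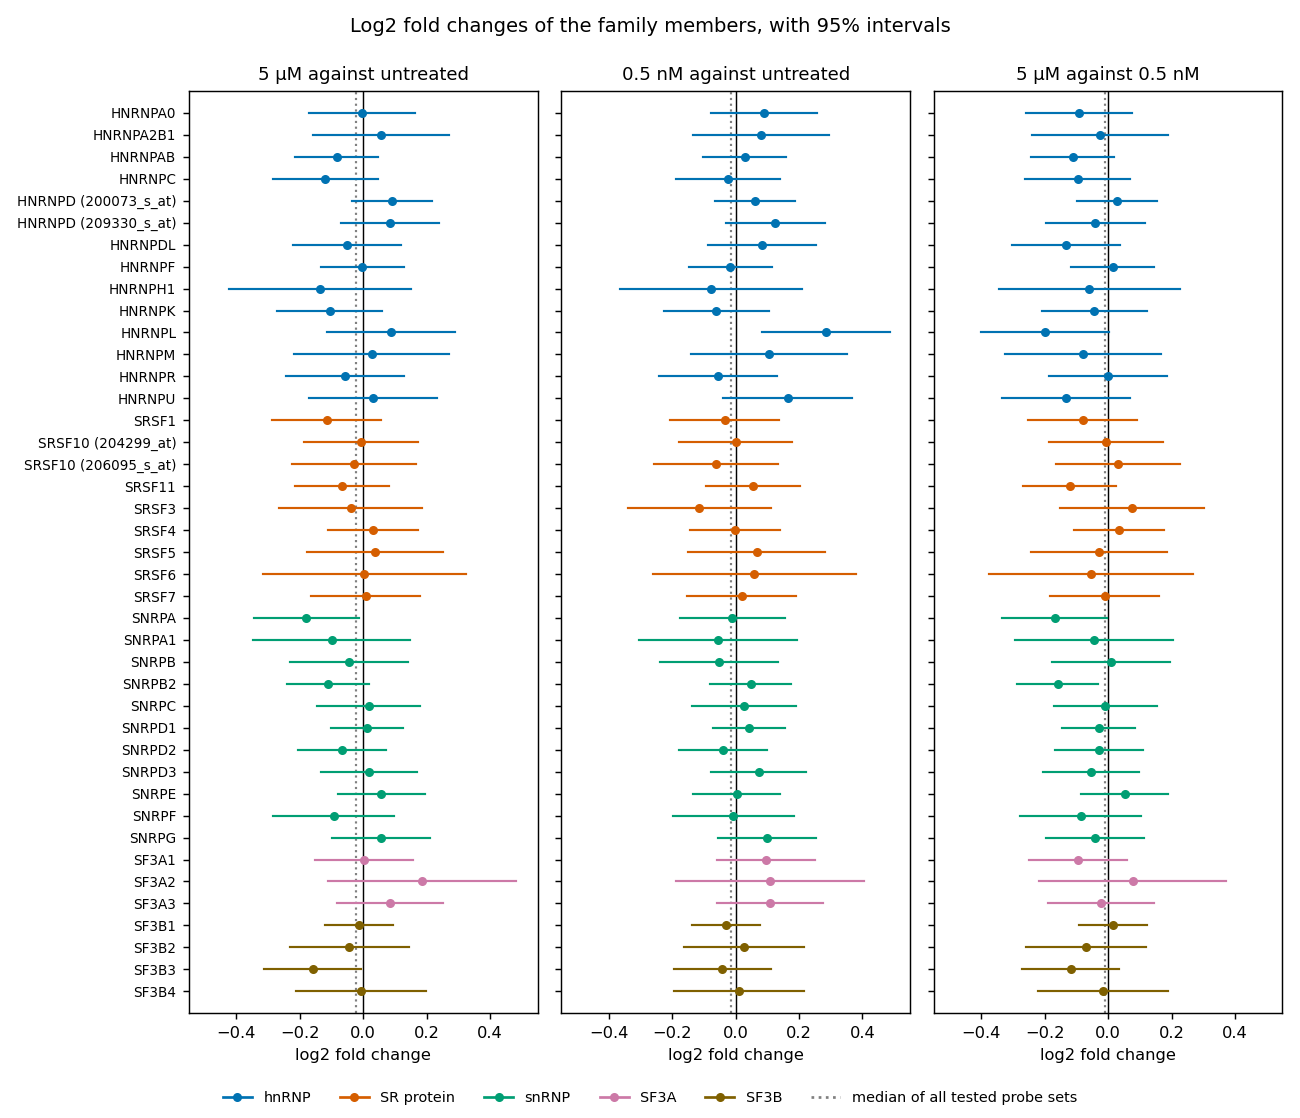
Log2 fold change of each of the 41 member probe sets above the filter (points) with the 95% interval of the limma fit (bars), coloured by family, in the 3 comparisons. The dotted line is the median of all 5830 tested probe sets; every bar stays within 0.5 log2 of 0, and only HNRNPL, SNRPA, SNRPB2 and SF3B3 have a bar that leaves out 0 in any comparison.

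The hnRNP family held 15 probe sets for 14 genes, of which 14 probe sets were tested. The family's median log2 fold change against untreated was -0.0029 at 5 µM and 0.07 at 0.5 nM. All tested probe sets had medians of -0.024 and -0.016 there. Between the doses the hnRNP median was -0.069, and 12 of the 14 were lower at 5 µM, where 55% of all tested probe sets were. Without 0.5 nM replicates 1, 2 and 3 in turn that count was 10, 13 and 11 of 14. Without 5 µM replicates 1, 2 and 3 in turn it was 9, 10 and 13 of 14. HNRNPL, which binds CA-rich RNA and represses or activates exons by position, had the smallest p of the family at 0.5 nM. Its signal in untreated cells was 8.99, 9.03 and 9.25 log2, at 0.5 nM 9.19, 9.53 and 9.41, and at 5 µM 9.17, 9.17 and 9.19. Replicate 1 at 0.5 nM lay below untreated replicate 3, so the groups overlapped. The fold change at 0.5 nM was 0.29 ± 0.09 log2 (SE, n = 3 per group), with a 95% interval of 0.08 to 0.49, limma's unadjusted p = 0.0101 and adjusted p = 0.9999. It was 0.09 ± 0.09 at 5 µM, and the doses differed by -0.20 with an interval of -0.40 to 0.0040. Leaving out 1 array moved the 0.5 nM value between 0.21 and 0.38.

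HNRNPU, a nuclear scaffold protein that also binds RNA, was at 10.07, 9.68 and 9.82 log2 in untreated cells. It was at 9.97, 10.04 and 10.05 at 0.5 nM and at 9.92, 9.78 and 9.96 at 5 µM. All 3 arrays at 5 µM lay below all 3 at 0.5 nM, by a difference of -0.13 with an interval of -0.34 to 0.07, while the untreated arrays spanned both groups. HNRNPC, which binds uridine tracts of nascent RNA, was at 10.60, 10.56 and 10.52 in untreated cells, at 10.68, 10.54 and 10.38 at 0.5 nM and at 10.40, 10.52 and 10.40 at 5 µM. Its value at 5 µM against untreated was -0.12 with an interval of -0.29 to 0.05. HNRNPK, which binds cytidine-rich RNA, was the 1 hnRNP probe set whose arrays did not overlap between 5 µM (10.91, 10.89 and 10.88) and untreated (10.95, 11.00 and 11.04), at -0.11 with an interval of -0.27 to 0.06.

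HNRNPD, which binds AU-rich elements of unstable messengers, was measured by 2 probe sets. The one with the higher signal (200073_s_at) was at 10.71, 10.79 and 10.74 in untreated cells, 10.85, 10.79 and 10.79 at 0.5 nM, and 10.79, 10.79 and 10.93 at 5 µM. The other (209330_s_at) was at 10.27, 10.41 and 10.32, at 10.52, 10.44 and 10.43, and at 10.30, 10.41 and 10.55 in the same order of groups. Both probe sets were above untreated at each dose, by 0.06 and 0.12 at 0.5 nM and by 0.09 and 0.08 at 5 µM, with all 4 intervals including 0. HNRNPAB, a member of the A and B type that binds RNA and single-stranded DNA, was at 11.79, 11.69 and 11.75 in untreated cells, 11.79, 11.75 and 11.78 at 0.5 nM and 11.62, 11.59 and 11.76 at 5 µM, with 2 of the 3 arrays at 5 µM below every other array.

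The remaining hnRNPs gave values between -0.14 and 0.11 log2 in the comparisons with untreated. They were HNRNPA0, HNRNPA2B1, HNRNPDL, HNRNPF, HNRNPH1, HNRNPM and HNRNPR. HNRNPH1, which binds runs of guanosine, was the most variable of them, with an SD within groups of 0.197 log2: it was at 10.29 on untreated replicate 1 and at 10.83 and 10.68 on the other two. HNRNPA1 was the 1 member below the filter, at 4.72, 4.78 and 4.74 in untreated cells, 4.85, 4.79 and 4.81 at 0.5 nM and 4.80, 4.79 and 4.78 at 5 µM. Its arrays at 0.5 nM lay above those of untreated cells by 0.07, with limma's adjusted p = 0.979 in a fit without the filter. The mean signal of this probe set was at percentile 2.97 of the 8746 probe sets, near the lowest value of 4.37 log2. It was the only HNRNPA1 probe set used, and it may not report the level of the gene.

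**Figure D2:**
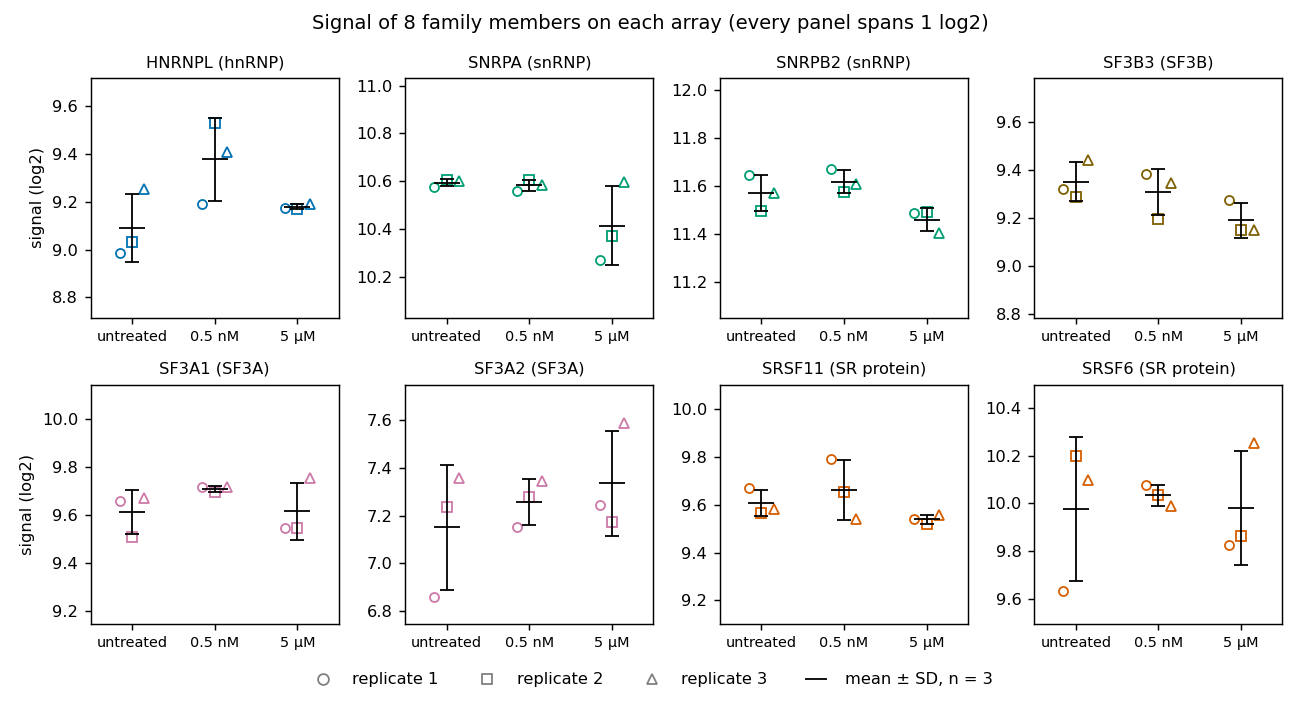
Signal (log2, y axis) of 8 members on each array, by group (x axis), with the mean and SD of 3 arrays in black; every panel spans 1 log2. HNRNPL is higher on 2 of the 3 arrays at 0.5 nM, SNRPA is lower on 2 of the 3 at 5 µM, and HNRNPL, SF3A2 and SRSF6 have their lowest value on untreated replicate 1.

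The SR protein family had 9 probe sets for 8 genes, all above the filter, and its medians lay near 0. The median log2 fold change was -0.0072 at 5 µM and -5e-05 at 0.5 nM against untreated, and -0.011 between the doses. SRSF1, the founding member of the family and a proto-oncogene, was at 10.08, 10.08 and 10.20 log2 in untreated cells, at 10.18, 9.94 and 10.12 at 0.5 nM and at 10.05, 9.88 and 10.08 at 5 µM. The arrays overlapped between all groups. Its 5 µM value of -0.12 ± 0.08 (SE) had the smallest p of the family there, with limma's adjusted p = 0.821. SRSF11, which carries an arginine- and serine-rich domain and associates with splicing complexes, was at 9.67, 9.57 and 9.58 in untreated cells, 9.79, 9.65 and 9.54 at 0.5 nM and 9.54, 9.52 and 9.56 at 5 µM. Its arrays at 5 µM lay just below all untreated arrays but not below all arrays at 0.5 nM, and the fold change was -0.07 with an interval of -0.22 to 0.08.

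SRSF3, the smallest SR protein, was at 9.59, 9.56 and 9.52 in untreated cells, at 9.69, 9.40 and 9.24 at 0.5 nM and at 9.39, 9.63 and 9.53 at 5 µM. The untreated arrays lay inside the wider range of the 3 arrays at 0.5 nM. SRSF10, which acts as a repressor when it loses its phosphates, had a value of -5e-05 at 0.5 nM from 1 probe set (204299_at) and -0.06 from the other (206095_s_at). The first was at 6.94, 7.09 and 7.01 in untreated cells, 7.21, 6.89 and 6.95 at 0.5 nM and 7.02, 7.02 and 6.98 at 5 µM, and the second at 8.93, 8.87 and 8.99, at 9.05, 8.86 and 8.70, and at 8.78, 8.99 and 8.94. On both, replicate 1 was the highest array at 0.5 nM. SRSF6 was the most variable member of all families, with an SD within groups of 0.224 log2. It was at 9.63 on untreated replicate 1 against 10.20 and 10.10 on the other untreated arrays, and at 9.82, 9.86 and 10.25 at 5 µM. SRSF4, SRSF5 and SRSF7 were within 0.07 log2 of untreated at both doses.

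Of the 42 member probe sets 7 had their lowest value of all 9 arrays on untreated replicate 1, the array with the low spike-in controls. Untreated replicate 2 and 5 µM replicate 2 also held the lowest value of 7 each, and 0.5 nM replicate 3 that of 9. The remaining arrays held it for 0 to 4. The 7 on untreated replicate 1 were HNRNPH1, SRSF6, SF3A2, HNRNPL, both HNRNPD probe sets and HNRNPA1. These 7 were picked for being lowest there. Of the 41 tested members, 26 lay above their untreated group mean on that array (63.4%), with a median deviation of 0.0133 log2. The part of that array in the values of members was not tested beyond leaving it out. Without it HNRNPH1 went from -0.14 to -0.29 at 5 µM, SRSF6 from 0.0038 to -0.17 and SF3A2 from 0.18 to 0.04. At 0.5 nM HNRNPL went from 0.29 to 0.23 and SF3A2 from 0.11 to -0.04. Some members not picked in this way moved up at 5 µM. HNRNPM went from 0.03 to 0.15, HNRNPU from 0.03 to 0.14 and SRSF5 from 0.04 to 0.14. Over all 41 tested members, 23 were lower at 5 µM with that array and 20 without it. Their median went from -0.0061 to 0.0012. None passed.

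The snRNP proteins had 11 probe sets for 11 genes, all above the filter. The family's median was -0.044 at 5 µM, 0.0037 at 0.5 nM and -0.042 between the doses, and 9 of the 11 were lower at 5 µM than at 0.5 nM, where 55% of all tested probe sets were. Without 0.5 nM replicates 1, 2 and 3 in turn the count was 4, 9 and 11 of 11. Without 5 µM replicates 1, 2 and 3 in turn it was 6, 7 and 10 of 11. SNRPA, the U1 snRNP protein that binds a stem-loop of U1 RNA, had the smallest p of all members at 5 µM against untreated. It was at 10.58, 10.61 and 10.60 log2 in untreated cells, at 10.56, 10.61 and 10.58 at 0.5 nM and at 10.27, 10.37 and 10.60 at 5 µM. Replicates 1 and 2 at 5 µM lay below all 6 other arrays and replicate 3 lay among them. The fold change against untreated was -0.18 ± 0.07 (SE, n = 3 per group) with an interval of -0.35 to -0.01, limma's unadjusted p = 0.0359 and adjusted p = 0.699. Between the doses it was -0.17 (unadjusted p = 0.0468 by limma, adjusted p = 0.994). Without 5 µM replicate 3 the value against untreated was -0.27 and without replicate 1 it was -0.11, and the lowest adjusted p in any setting tried was 0.176.

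SNRPB2, a U2 snRNP protein related to SNRPA, had the smallest p of all members between the doses. It was at 11.64, 11.50 and 11.57 in untreated cells, at 11.67, 11.57 and 11.61 at 0.5 nM and at 11.48, 11.49 and 11.40 at 5 µM. All 3 arrays at 5 µM lay below all 6 others. The difference between the doses was -0.16 ± 0.06 (SE) with an interval of -0.29 to -0.03, limma's unadjusted p = 0.0199 and adjusted p = 0.945. Against untreated it was -0.11 with an interval of -0.24 to 0.02. SNRPA1, the partner of SNRPB2 in the U2 snRNP, was at 9.38, 9.54 and 9.45 in untreated cells, 9.67, 9.34 and 9.20 at 0.5 nM and 9.25, 9.32 and 9.51 at 5 µM, with no separation of the groups. SNRPC of the U1 snRNP was within 0.03 log2 of untreated at both doses.

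The Sm ring proteins lay close to their untreated levels at both doses. SNRPB, SNRPD1, SNRPD2, SNRPD3, SNRPE, SNRPF and SNRPG gave values from -0.09 to 0.06 log2 at 5 µM and from -0.05 to 0.10 at 0.5 nM. SNRPD2 had the highest signal, at 12.86, 12.84 and 12.79 in untreated cells, 12.87, 12.76 and 12.75 at 0.5 nM and 12.68, 12.74 and 12.87 at 5 µM. SNRPG had the largest value at 0.5 nM, with 11.28, 11.08 and 11.14 there against 11.06, 11.04 and 11.10 in untreated cells, and was at 11.10, 11.03 and 11.24 at 5 µM. SNRPD3 was at 10.45, 10.22 and 10.19 in untreated cells, 10.36, 10.34 and 10.38 at 0.5 nM and 10.31, 10.31 and 10.29 at 5 µM. The doses did not overlap for SNRPD3, but the untreated arrays spanned both. SNRPE was the 1 snRNP probe set that lay higher on all arrays at 5 µM (11.41, 11.41 and 11.38) than on all untreated arrays (11.36, 11.37 and 11.31), by 0.06 with an interval of -0.08 to 0.19.

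SF3A and SF3B are the subcomplexes that fix the U2 snRNP to the branch site. The 3 SF3A probe sets had medians of 0.09 at 5 µM and 0.11 at 0.5 nM against untreated. All 3 were above untreated at each dose, where 38.1% and 40.9% of all tested probe sets were. SF3A1 was at 9.66, 9.51 and 9.67 log2 in untreated cells, 9.72, 9.69 and 9.72 at 0.5 nM and 9.54, 9.55 and 9.75 at 5 µM, so that the 0.5 nM arrays lay above the untreated ones by 0.10 (interval -0.06 to 0.25). SF3A3 was at 8.54, 8.43 and 8.40, at 8.51, 8.61 and 8.56, and at 8.41, 8.51 and 8.70 in the same order of groups. The SF3A3 arrays overlapped between all groups. SF3A2 was at 6.86, 7.23 and 7.36, at 7.15, 7.28 and 7.34, and at 7.25, 7.17 and 7.59. The 5 µM median of SF3A rested on 5 µM replicate 3, the highest array for all 3 genes in that group, and was 0.0075 without it.

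SF3B1, which contacts the branch site directly and is often mutated in blood cancers, was the steadiest tested member. It was at 11.18, 11.15 and 11.21 in untreated cells, at 11.16, 11.11 and 11.18 at 0.5 nM and at 11.18, 11.14 and 11.17 at 5 µM, an SD within groups of 0.0296 log2. Its interval at 5 µM ran from -0.12 to 0.09. SF3B3, a propeller-shaped subunit of the same complex, was at 9.32, 9.29 and 9.44 in untreated cells, 9.38, 9.20 and 9.35 at 0.5 nM and 9.28, 9.15 and 9.15 at 5 µM. The arrays at 5 µM lay below the untreated ones, with a fold change of -0.16 ± 0.07 (SE), an interval of -0.31 to -0.0068, limma's unadjusted p = 0.0421 and adjusted p = 0.707. SF3B2 was at 9.82, 9.50 and 9.68, at 9.63, 9.67 and 9.79, and at 9.55, 9.60 and 9.73 in the same order of groups, with much overlap between groups. SF3B4 was at -0.0061 and 0.01 log2 from untreated at 5 µM and 0.5 nM. The median of the 4 SF3B probe sets was -0.029 at 5 µM, with all 4 below untreated, where 61.9% of all tested probe sets were. At 0.5 nM it was -0.0097, with 2 of the 4 below.

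Within a group, many members deviated from the group mean on the same arrays. On 5 µM replicate 3, 30 of 41 members lay above their group mean (73.2%), with a median deviation of 0.0943 log2. There 50.4% of all tested probe sets did, with a median of 0.00043. On 0.5 nM replicate 1 it was 31 of 41 members (75.6%) at a median of 0.0605, against 63.8% of all probe sets at 0.0298. On the other 7 arrays 29.3% to 63.4% of members lay above. The mean over the 101 tested probe sets of other splicing genes, described below, was also highest in its group on these arrays. On replicates 1 to 3 it was 8.98, 9.02 and 9.07 log2 at 5 µM and 9.08, 9.02 and 8.98 at 0.5 nM. In untreated cells it was 9.09, 9.01 and 9.03. Shares above the group mean and pair correlations were not computed for the other splicing genes. Whether the deviations were particular to the member families was therefore not tested. Across the 9 deviations, the median Pearson correlation over 820 pairs of members was 0.227, and over the 55 pairs of snRNP probe sets 0.468, against 0.0332 over all pairs of tested probe sets. Correlations of this kind share the same 9 arrays and are descriptions without a test. For hnRNP pairs the median was 0.11, for SR protein pairs 0.273, for SF3A 0.389 over 3 pairs and for SF3B 0.105 over 6 pairs.

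**Figure D3:**
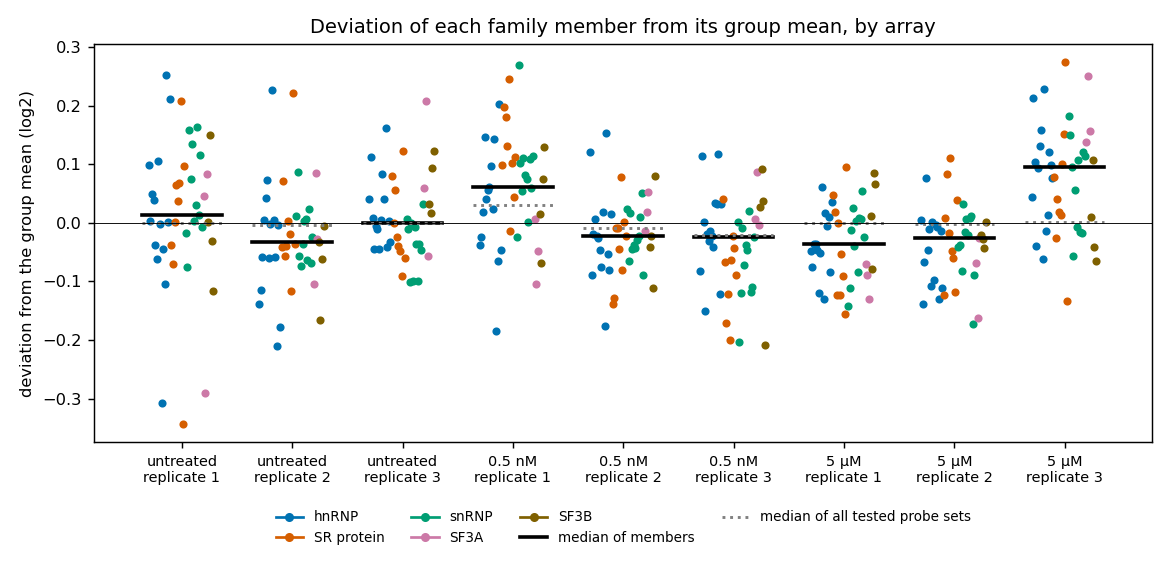
Deviation of each of the 41 members from the mean of its group (log2, y axis) on each of the 9 arrays (x axis), coloured by family. The black line is the median of the members and the dotted line that of all 5830 tested probe sets; the members' line is highest on 5 µM replicate 3 and 0.5 nM replicate 1, at 0.0943 and 0.0605.

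The contrast between the doses varied with single arrays. There 32 of 41 members were lower at 5 µM than at 0.5 nM (78%), against 55% of all tested probe sets, with medians of -0.042 and -0.0089 log2. Without 0.5 nM replicate 1 the count was 21 of 41, against 47.3% of all, and without 5 µM replicate 1 it was 23 of 41, against 54.4%. Without 0.5 nM replicates 2 and 3 in turn it was 32 and 35 of 41, against 56.6% and 59.2% of all. Without 5 µM replicates 2 and 3 in turn it was 27 and 33 of 41, against 53.3% and 54.1%. Against untreated, 23 of 41 members were lower at 5 µM, against 61.9% of all, and 17 of 41 at 0.5 nM, against 59.1% of all. Both comparisons with untreated share the same 3 control arrays. These splits moved with the scaling. After quantile normalization 17 of 41 members were lower than untreated at 5 µM, against 49% of all, and after centring each array on its median 18 of 41 were, against 50.4%. The members' median there went from -0.0061 to 0.03 and 0.02, and the hnRNP and SR protein medians also became positive. Of the 4 SF3B probe sets, 4 were lower before, 1 after quantile normalization and 2 after centring. At 0.5 nM centring left 11 of 41 members lower, against 44% of all. Between the doses 28 and 32 of 41 were lower after these scalings, and the median of every family stayed negative.

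Promoters of the member genes were read for sequence elements they have in common. RefSeq promoter windows of 300 bases (GRCh38.p14, 250 before and 50 from the annotated start, the first window listed for a gene) matched 37 of the 40 genes, all but HNRNPA1, SF3B3 and SNRPD1. The letters CCGGAAG, which ETS transcription factors are known to bind, searched on both strands, were in 16 of 37 member windows (43.2%), against 13.4% of 6209 windows for genes on the array and 10.7% of 27305 windows in all. The ETS motif was in 7 of 10 snRNP windows and 3 of 3 SF3A windows, in 2 of 3 SF3B windows, and in 2 of 13 hnRNP and 2 of 8 SR protein windows. The letters around the match nearest the start are shown for the snRNP and SF3A genes because these families held it in the largest shares, with the motif in capitals and each sequence read 5′ to 3′ on the strand that carries it:
SNRPA1 (chr15:101295345-101295371, + strand): ggcgttcttgCCGGAAGtcgtggcgcg
SNRPB (chr20:2470814-2470840, - strand): gtgagctggaCCGGAAGtaggtttcta
SNRPB2 (chr20:16729994-16730020, - strand): gagccaggcaCCGGAAGcaacgtagcc
SNRPC (chr6:34757284-34757310, + strand): atacgctcttCCGGAAGcaccgacaaa
SNRPD2 (chr19:45692363-45692389, + strand): ctgcctacatCCGGAAGgggcatggac
SNRPE (chr1:203861597-203861622, + strand): ttctttattCCGGAAGttgctctcag
SNRPG (chr2:70293492-70293518, + strand): cgacctcggaCCGGAAGaagaaatgaa
SF3A1 (chr22:30356927-30356953, - strand): ggggacggtcCCGGAAGtgcgccagtc
SF3A2 (chr19:2236805-2236831, + strand): ctcatttgccCCGGAAGtgctttcttt
SF3A3 (chr1:37989998-37990024, + strand): accaacacggCCGGAAGcaactcctgc

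The first base of these matches in the direction of the gene lay between -241 and -22 from the annotated start in the snRNP genes and between -49 and 9 in the SF3A genes. In 3 of the 7 snRNP genes the motif ran in the direction of the gene. A match is a run of letters and was not tested as a binding site. The comparison windows were not matched to the members in signal, where the median was 9.87 log2 over members and 6.62 over all probe sets. Whether the share with the ETS motif is particular to these families was not tested.

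The other motifs were searched on both strands in the same windows. No motif contains another, and overlapping matches of different motifs were each counted. The CCAAT box (CCAAT) was in 35.1% of member windows, against 36.8% for genes on the array and 35.7% of all windows, and within the families in 8 of 13 hnRNP windows and 1 of 8 SR protein windows. The GC box (GGGCGG) was in 59.5% of members, against 61.2% and 44.6%. The E-box CACGTG, the letters that MYC and MYCN proteins prefer, was in 4 of 37 (10.8%), namely HNRNPD, HNRNPDL, HNRNPM and SF3B1, against 9.0% and 7.43%. The core of the cyclic AMP response element (TGACGT) was in 16.2%, against 10.6% and 8.32%, the TATA box (TATAAA) in 16.2%, against 9.71% and 12%, and the NRF1 core (GCATGCG) in 5.41%, against 4.7% and 4.13%. The median GC content of member windows was 62%, against 63.3% for genes on the array, and the median number of CpG dinucleotides was 28, against 23.

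**Figure D4:**
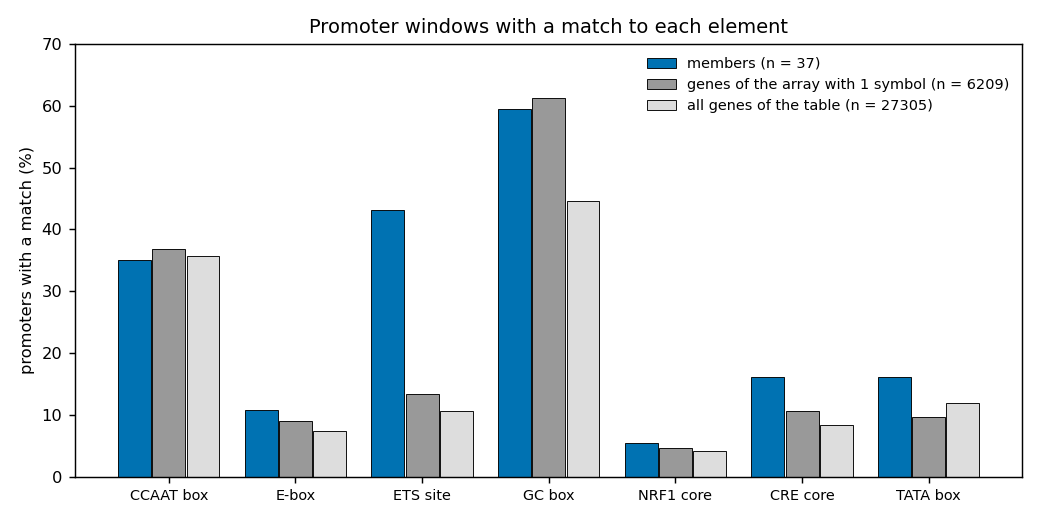
Share of promoter windows of 300 bases with at least 1 match to each element (y axis, percent), for 37 member genes, 6209 genes on the array and 27305 genes of the RefSeq table. The ETS site stands at 43.2% in members against 13.4% and 10.7%, while the CCAAT box and GC box are at shares near those of the genes on the array. The comparison genes were not matched to the members in signal.

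The bases upstream of the start are printed for HNRNPL, SNRPA and SNRPB2, the members with an unadjusted p under 0.05 in a comparison that have a RefSeq window. Each is the 250 bases before the start, 5′ to 3′ on the strand of the gene, with matches to any of the searched motifs in capitals:
HNRNPL (chr19:38852348-38852597, - strand): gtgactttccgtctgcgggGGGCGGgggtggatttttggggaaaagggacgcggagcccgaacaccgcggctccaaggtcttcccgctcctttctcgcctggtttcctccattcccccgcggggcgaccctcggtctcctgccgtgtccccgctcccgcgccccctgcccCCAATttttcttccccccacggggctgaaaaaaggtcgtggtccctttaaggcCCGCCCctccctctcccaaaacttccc
SNRPA (chr19:40750953-40751202, + strand): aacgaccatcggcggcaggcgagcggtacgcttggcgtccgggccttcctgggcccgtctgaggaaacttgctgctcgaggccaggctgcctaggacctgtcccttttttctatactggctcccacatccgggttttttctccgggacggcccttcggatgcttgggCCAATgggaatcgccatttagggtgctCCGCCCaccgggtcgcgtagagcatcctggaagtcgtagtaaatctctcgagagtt
SNRPB2 (chr20:16729776-16730025, + strand): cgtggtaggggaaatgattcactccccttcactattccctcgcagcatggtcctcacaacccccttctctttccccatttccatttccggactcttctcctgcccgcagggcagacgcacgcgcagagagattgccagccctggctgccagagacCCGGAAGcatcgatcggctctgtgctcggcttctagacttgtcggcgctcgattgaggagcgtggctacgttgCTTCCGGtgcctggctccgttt

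HNRNPL and SNRPA each held a CCAAT box at -80 and -83, with GC boxes at -231 and -27 in HNRNPL and at -56 in SNRPA. SNRPB2 held 2 ETS sites, at -95 and -22, in opposite directions. The GC contents of these 3 upstream stretches were 66.0%, 60.4% and 59.6%.

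Other genes of RNA splicing were described from a list of 161 genes outside the families above, of which 106 were measured by 109 probe sets and 101 probe sets lay above the filter. By limma 0 of 101 passed in each of the 3 comparisons. An unadjusted p under 0.05 was found for 7, 2 and 3 at 5 µM, at 0.5 nM and between the doses. These are 6.93%, 1.98% and 2.97%, against 6.84%, 3.29% and 4.65% of all probe sets. The list's median was -0.024 at 5 µM against untreated, the same as over all probe sets, -0.011 at 0.5 nM and -0.017 between the doses. The smallest p at 5 µM belonged to SRPK3 and CLK3. SRPK3, an SR protein kinase best known from muscle, was at 7.39, 7.37 and 7.37 log2 in untreated cells, at 7.20, 7.24 and 7.16 at 0.5 nM and at 7.14, 7.22 and 7.17 at 5 µM. All 3 untreated arrays lay above all 6 treated ones, and the fold change was -0.20 ± 0.05 (SE) at 5 µM and -0.17 ± 0.05 at 0.5 nM, with limma's adjusted p of 0.302 and 0.9999. CLK3, a nuclear kinase of SR proteins, was at 8.38, 8.35 and 8.32, at 8.24, 8.28 and 8.26, and at 8.08, 8.13 and 8.27 in the same order of groups (-0.19 at 5 µM, limma's adjusted p = 0.478). Other kinases of SR proteins did not share a direction at 5 µM: SRPK1 was at -0.15, SRPK2 at 0.02, CLK2 at 0.05 and DYRK1A at 0.17, with limma's adjusted p of 0.729 to 0.981, and CLK1 lay below the filter.

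Within that list, the 14 tested probe sets for SR protein kinases and snRNP assembly factors did not overlap between 5 µM and untreated in 5 cases, 4 of them lower, against 12.3% of all probe sets. The 25 probe sets of the tri-snRNP, U1 and minor spliceosome particles did not overlap in 5 cases, all lower, the 27 of branch site and catalytic factors in 1 and the 35 of splicing regulators in 0. PNN, a nuclear speckle protein that associates with exon junction complexes, was at 7.49, 7.24 and 7.53 log2 in untreated cells, at 7.79, 7.57 and 7.54 at 0.5 nM and at 7.64, 7.70 and 7.79 at 5 µM, a value of 0.21 ± 0.09 (SE) at 0.5 nM (limma's adjusted p = 0.9999). At 5 µM its arrays lay above all untreated ones, by 0.29 ± 0.09 with an interval of 0.09 to 0.49 (limma's unadjusted p = 0.00811, adjusted p = 0.483). Between the doses the smallest p belonged to the neuronal RNA-binding protein ELAVL4, at 10.45, 10.59 and 10.43 at 0.5 nM and 10.29, 10.19 and 10.43 at 5 µM, and to its ubiquitous relative ELAVL1, at 9.35, 9.21 and 9.16 and at 8.99, 9.14 and 9.01. Their differences were -0.18 and -0.19, both with limma's adjusted p = 0.994.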

How the data were processed

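The deposited table gave 1 log2 value per probe set and array for 9 arrays, made by the authors with GCRMA (named in the submitters' processing notes; version and settings are not given there). That method models background from the sequence of each probe before it normalizes and summarises, and may compress differences near background. The range of the values, 4.37 to 14.5, gave the log2 scale. Scanner intensities were not used here.

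From 8793 probe sets, 47 controls and the 2916 dimmest of the other 8746 by mean over all arrays were left out, and 5830 were tested. Groups came from the titles. A model of 3 groups over all 9 arrays, with no covariate, was fitted by lmFit and eBayes of limma 3.58.1 (R 4.3.3), adjusted by Benjamini-Hochberg in each comparison, and checked on simulated data. With 3 arrays a group, the smallest p of an exact permutation test is 0.1. Standard errors and 95% intervals are those of the moderated fit. Symbols came from the platform annotation, updated by Entrez identifier, and promoters from RefSeq. Of the members' probe sets, 26 are of a type (_s_at) that can match several transcripts, 1 (SF3B4, _x_at) can match unrelated ones and 1 (SF3A2, _i_at) lacks probes.

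The members and lists were chosen with earlier results of these data known. By rule, values on every array are given for the 2 members with the smallest p in each family and comparison, the highest and lowest signals, genes with 2 probe sets, and, in each comparison, the 2 other splicing genes with the smallest p. Further members were given such values after their values were seen: HNRNPK, HNRNPH1 (in part), SRSF6 and SNRPE. The kinases SRPK1, SRPK2, CLK1, CLK2 and DYRK1A were likewise added with their values known. The promoter motifs were chosen after the expression values were seen. Alternatives were the normalization, the filter, the moderation, the samples fitted, a replicate block and leaving out each array.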

Additional observations from a re-analysis of the deposited data

How the results depend on the processing

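No member passed under any of 16 alternatives in any of the 3 comparisons (lowest adjusted p 0.176, 0.465 and 0.18 by limma at 5 µM, at 0.5 nM and between the doses), and the other splicing genes also gave counts of 0. The count over all probe sets moved from 17 to 7 at 5 µM and from 15 to 4 between the doses in fits of only the 2 groups compared. With 1 array left out it ran from 4 to 17 at 5 µM and from 3 to 14 between the doses, and it was 0 throughout at 0.5 nM. At 5 µM the arrays whose removal lowered it most were untreated replicates 1, 2 and 3 (4, 7 and 4) and 5 µM replicates 1, 2 and 3 (6, 8 and 9). Between the doses they were 0.5 nM replicates 1, 2 and 3 (5, 6 and 3) and 5 µM replicates 1 and 2 (8 and 4). Over all alternatives the members' median ran from -0.046 to 0.027 at 5 µM, from 0.0008 to 0.053 at 0.5 nM and from -0.099 to -0.012 between the doses. Of 41 members above the filter, 20, 18 and 15 kept the sign of their fold change throughout in these comparisons. Arrays that share a replicate number correlated in their deviations at 0.0311 to 0.0707 for replicate 1, -0.00035 to 0.229 for replicate 2 and 0.298 to 0.33 for replicate 3, and 4 of 9 arrays correlated best with their own number. Not every pair was above 0.1, so the arrays were not treated as paired. The SF3A median, examined under these alternatives after seeing the data, was 0.15 at 5 µM without 5 µM replicate 1 and 0.0075 without replicate 3, and between the doses 0.04 and -0.0996; the cause was not tested. With the replicate block 0 members passed in each comparison, and 15, 0 and 15 of all probe sets did. The number of arrays limits the precision, and signal over background was not assessed.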
